A study of Mus musculus with 7 samples.

Results

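The genes described here are 10 genes of AP-1 and the immediate early response. They are the AP-1 genes Fos, Fosb, Fosl1, Fosl2, Jun, Junb and Jund, together with Egr1, Atf3 and Nr4a1. They were chosen by name, after earlier results of these data were known, among them a lower mean of Fos in tumor-bearing mice, and were matched by Entrez gene ID; all 10 were found among the 23725 IDs listed for each library. AP-1 is a dimer of a Fos-family and a Jun-family protein, or of 2 Jun-family proteins, that binds DNA through a basic region and a leucine zipper. Growth factors, parathyroid hormone and mechanical load switch many, but not all, of these genes on within minutes and without new protein synthesis. The transcripts of such genes decay quickly. Enzymatic digestion of tissue is known to do the same. In bone, Fos is best known for its need in osteoclast formation, while Fosl1, Fosl2 and Jund take part in the control of bone formation by osteoblasts.

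The cells were osteoblasts sorted as GFP-positive and negative for CD45, CD31 and Terr119 from digested bone pooled with lineage-depleted marrow, 2000 cells per mouse. All mice were male C57BL/6 animals that carried p53Flox/Flox and the Ocn GFP reporter of osteocalcin expression. Cre delivered to the lung deletes p53 there. The 4 tumor-bearing mice had received AdCre into the trachea and were taken 14 weeks later, with replicates 1 to 3 aged 31 weeks and replicate 4 aged 23 weeks. The 3 tumor-free mice, with replicates 1 and 2 aged 31 weeks and replicate 3 aged 23 weeks, carried the same alleles; the labels do not state separately whether they received virus. Each mouse gave 1 library of transcript 3′ ends, and in such bulk samples fewer cells of a type and less RNA per cell cannot be told apart.

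Libraries held 77127 to 169774 counts, and levels are given as CPM, the count scaled to the size of the library. Where a gene had 0 counts, its level could still be as high as 3 counts, which is 16.9 to 41.1 CPM across the libraries. Tumor-bearing replicate 1 was the shallowest library. All 14 osteoblast markers examined were detected, although osteocalcin itself was sparse, and their summed level was 1282 to 1838 CPM with a tumor and 1716 to 2772 CPM without. Markers of most other cells were counted in part. Of 9 neutrophil markers 4 were detected (81.2% of their counts on Csf3r; S100a8 and Elane at 0), and of 10 monocyte markers 3 (89.3% on Cx3cr1; Lyz2 at 0). Of 9 lymphocyte markers 5 were detected (Cd3d the most counted; Cd79a at 0), and they summed to 326 to 518.5 CPM with and 311 to 526 CPM without a tumor. Leukocyte surface markers, among them Laptm5, had 0 to 5 counts per library, and endothelial markers 0 to 2, with Pecam1 at 0. The sums of these 5 lists overlapped between the groups. All 8 erythroid markers found of 9 listed had counts, 9 to 21 per library, although Terr119-positive cells were sorted out. Of 8 osteoclast markers 4 were detected (Atp6v0d2, Ctsk, Acp5 and Oscar), while Calcr, Ocstamp, Dcstamp and Mmp9 were at 0. The osteoclast sums were 56.2 to 68.6 CPM with a tumor and 17.0 to 48.4 CPM without, with no overlap. They rested on 2 to 10 counts per library, of which 80.0% fell on Atp6v0d2.

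The promoters of Fos and Nr4a1 are shown because these genes stood at opposite ends of detection, with 105 counts and 0 counts over the 7 libraries, although each is a textbook target of the cyclic AMP pathway through which parathyroid hormone acts. The sequences are the 250 bases before the RefSeq start site on build GRCm38.p6, the assembly of mm10; for Nr4a1 the start site lies inside the annotated span of the gene, 101253902 to 101274795 on chromosome 15. Capitals mark the core of the cyclic AMP response element (CRE), TGACG on either strand, and the TATA box, TATAAA.
Fos, plus strand, chr12:85473640-85473889: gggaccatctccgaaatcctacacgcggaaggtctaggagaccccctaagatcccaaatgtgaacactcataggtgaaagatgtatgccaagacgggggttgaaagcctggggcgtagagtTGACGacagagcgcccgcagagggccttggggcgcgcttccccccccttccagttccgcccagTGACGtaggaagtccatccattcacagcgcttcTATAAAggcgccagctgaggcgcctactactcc
Nr4a1, plus strand, chr15:101266596-101266845: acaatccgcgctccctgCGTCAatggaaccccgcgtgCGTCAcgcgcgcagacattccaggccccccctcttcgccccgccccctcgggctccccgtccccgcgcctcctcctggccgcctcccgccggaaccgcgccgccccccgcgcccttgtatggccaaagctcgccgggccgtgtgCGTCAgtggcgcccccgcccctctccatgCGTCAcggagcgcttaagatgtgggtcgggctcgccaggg
The Fos window held 2 CRE cores and the TATA box, and the Nr4a1 window held 4 CRE cores, all read on the opposite strand. Over all 32851 RefSeq promoter windows of this length, 17.8% held a CRE core and 12.4% a TATA box. Windows were searched for 8 of the listed genes. Egr1 and Fosl1 were left out of this search, so it says nothing about motifs in their promoters. Of the 8, Fosb, Junb and Atf3 held 1 CRE core each, and Jun, Fosl2 and Jund held none. The full CRE, TGACGTCA (1.55% of windows), the AP-1 site, TGANTCA (6.75%), and the serum response element (SRE; 1.47%) were searched on both strands and were in none of the 8 windows; the known SRE of Fos lies further upstream. The SP1 box, GGGCGG (32.7% of windows), was in 6 of the 8, Junb and Jund being the exceptions, and is not in capitals. The Jund window lies before its RefSeq start at 70697739, whereas the GENCODE annotation starts this gene at 70698949. Bases before the GENCODE start of Jund were not searched. These are matches of letters, and nothing about binding follows from their presence or absence.

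Of the 10 genes, 8 had a count in at least 1 library, 4 (Fosb, Fosl2, Jun and Egr1) had a count in every library, and 2 (Fosl1 and Nr4a1) had none in any. Of all 23725 IDs, 13344 had a count in at least 1 library and 4199 in every library. Fos had more counts in total than 92.1% of IDs, Egr1 more than 88.5% and Jun more than 82.9%. Together they held 232 of 830673 counts, or 0.0279%. Fos and Egr1 carried 164 of these, which is 70.7%. Because the libraries count 3′ ends, levels were not divided by transcript length.

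**Figure D1:**
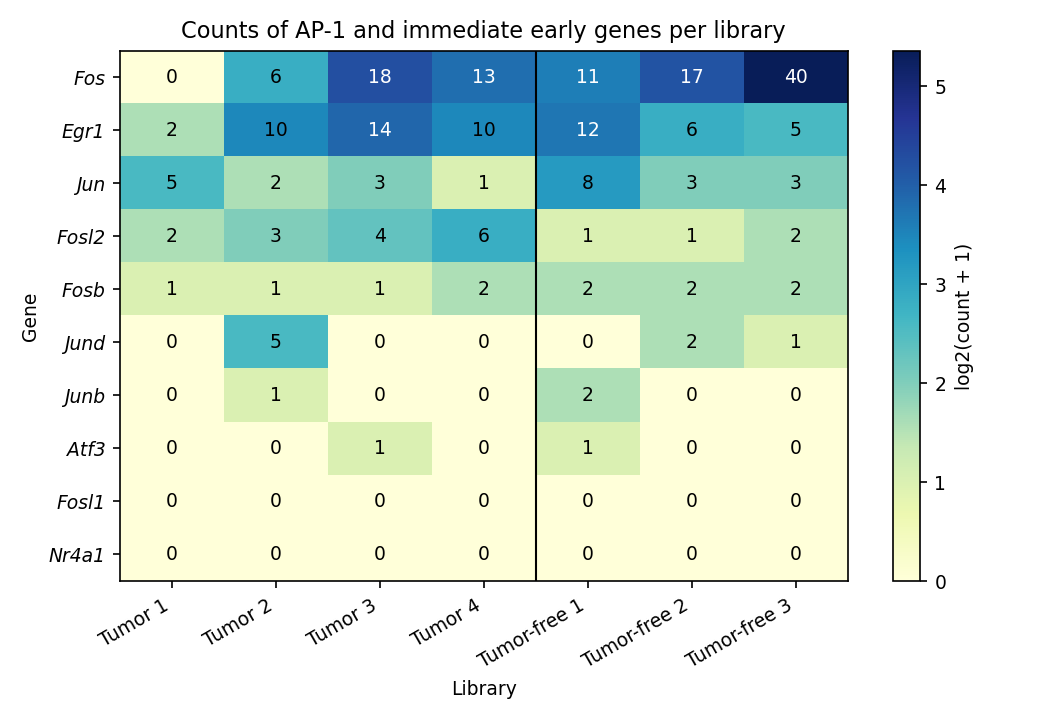
Counts of the 10 genes (rows, most counted at the top) in the 7 libraries (columns; the black line parts the 4 tumor-bearing from the 3 tumor-free mice), with colour on a log2(count + 1) scale. Fos, with 0 to 40 counts, and Egr1, with 2 to 14, stand above the other genes, and Fosl1 and Nr4a1 are at 0 throughout.

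Fos (chromosome 12, 85473890 to 85477274), the founding member of the Fos family, was the most counted of the 10. Tumor-bearing replicates 1 to 4 had 0, 6, 18 and 13 counts, or 0, 63.1, 101 and 88.7 CPM. Tumor-free replicates 1 to 3 had 11, 17 and 40 counts, or 107, 144 and 322 CPM. The CPM of the groups did not overlap, but the gap between 101 and 107 CPM was narrow beside counting error, since the exact Poisson 95% intervals of those libraries ran from 59.9 to 160 and from 53.4 to 191 CPM. The extremes were tumor-bearing replicate 1 at 0, where the interval reaches 50.6 CPM, and tumor-free replicate 3 at 322 CPM.

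The group means of Fos were 63.2 ± 45.03 CPM (SD, n = 4) with a tumor and 191 ± 115 CPM (SD, n = 3) without. In the fit over 2495 genes, with age as a factor, its log2 fold change (tumor-bearing over tumor-free) was -1.28 (SE 0.54), and the adjusted p was 0.990 (edgeR's quasi-likelihood test with Benjamini-Hochberg adjustment). The test called 0% of all genes tested, with a lowest adjusted p of 0.990 (edgeR); unadjusted, 25 genes were higher and 42 lower at p under 0.05. DESeq2 also called 0, with 13 higher and 36 lower unadjusted. Fos passed the low count filter through the tumor-free libraries, where it was high, and it was known to be lower when it was listed, so the difference is a description. Among genes tested, 1.32% had every tumor-bearing library below every tumor-free one.

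Within each age the order was the same for Fos. At 31 weeks the tumor-bearing libraries had 0, 63.1 and 101 CPM against 107 and 144 CPM, and at 23 weeks the values were 88.7 against 322 CPM, with 1 mouse each. With 31-week mice alone the log2 fold change was -0.96 (SE 0.75), and without tumor-free replicate 3 it was -0.93 (SE 0.72). The summed osteoblast markers stood at 1838, 1282, 1326 and 1480 CPM in the tumor-bearing and 2772, 1868 and 1716 CPM in the tumor-free libraries, so that the library highest for Fos was the lowest of its group for these markers. Erythroid markers summed to 75.04 to 151 CPM with and 136 to 204 CPM without a tumor, and the osteoclast sums were lower in every tumor-free library; the part of either in the Fos values was not tested.

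Egr1 (chromosome 18, 34861207 to 34864956), a zinc finger factor that serum and stress induce through the same upstream elements as Fos, showed no such division. It had 2, 10, 14 and 10 counts in tumor-bearing replicates 1 to 4, equal to 27.4, 105, 78.7 and 68.2 CPM. It had 12, 6 and 5 counts in tumor-free replicates 1 to 3, equal to 117, 50.9 and 40.3 CPM. The groups overlapped over nearly their whole range, and the means were 69.9 ± 32.3 CPM (SD, n = 4) with a tumor and 69.3 ± 41.4 CPM (SD, n = 3) without. Egr1 did not pass the low count filter. Fitted with no filter over 13344 genes, its log2 fold change was 0.11 (SE 0.50; adjusted p = 0.955, edgeR), and its sign turned in 5 of the 10 alternatives run.

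**Figure D2:**
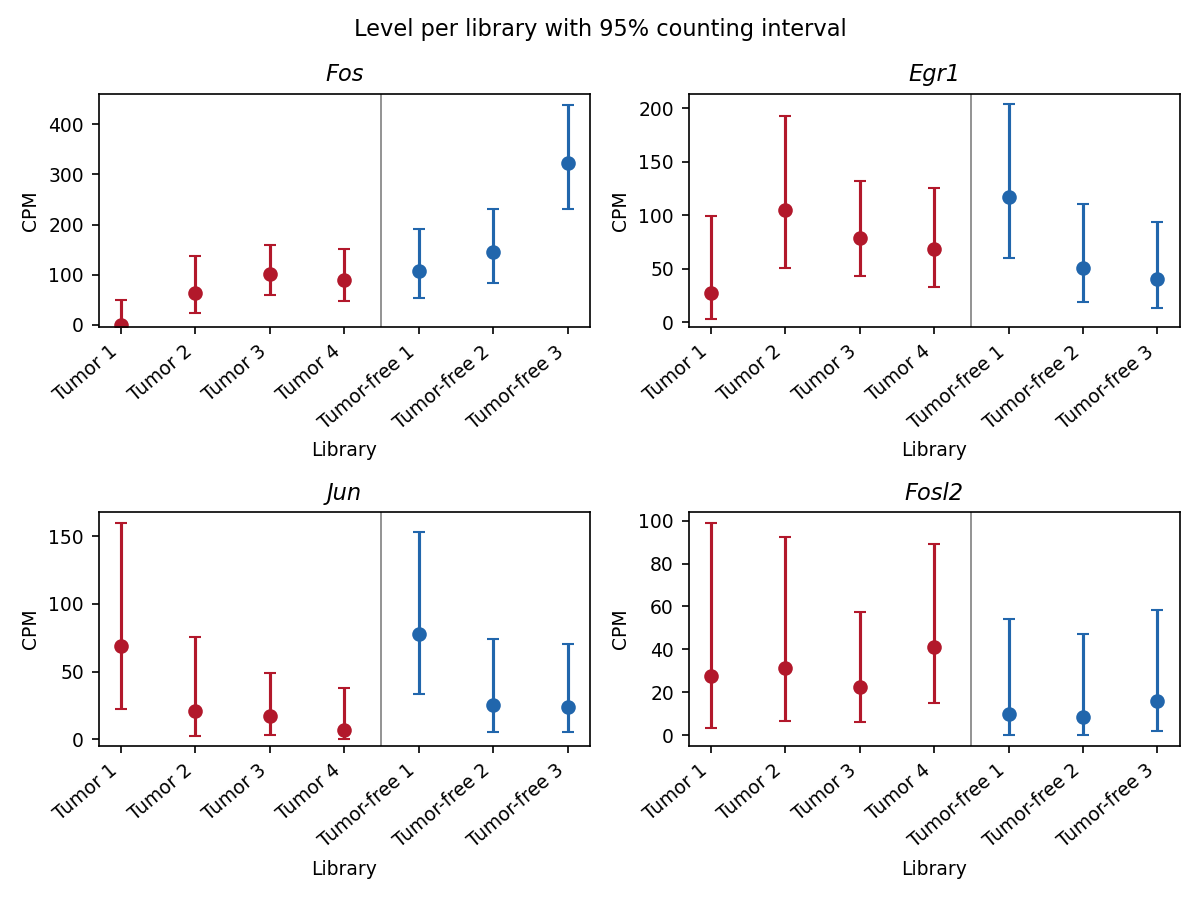
CPM of Fos, Egr1, Jun and Fosl2 in each library (red, tumor-bearing; blue, tumor-free; points are single libraries, bars exact Poisson 95% intervals, linear axes of different range). Fos rises to 322 CPM in tumor-free replicate 3, whereas Egr1 is at 40.3 CPM in the same library, and the intervals of Jun and Fosl2 overlap widely.

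The other Fos-family genes were near the limit of detection. Fosl2, which encodes Fra-2, had 2, 3, 4 and 6 counts in tumor-bearing replicates 1 to 4 and 1, 1 and 2 counts in tumor-free replicates 1 to 3. In CPM every tumor-bearing library (22.5 to 40.9) lay above every tumor-free one (8.49 to 16.1), with means of 30.6 ± 7.83 (SD, n = 4) against 11.4 ± 4.09 CPM (SD, n = 3). The counts overlapped at 2, and the direction was opposite to that of Fos. With no filter the log2 fold change was 1.41 (SE 0.77; adjusted p = 0.793, edgeR). Of 2240 genes with 10 to 30 counts in total, 3.21% had every tumor-bearing library above every tumor-free one. The osteoclast marker sum was divided in the same direction, and its part in the Fosl2 values was not tested.

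Fosb, a Fos-family gene known for slow accumulation of a stable short form in neurons, had 1 count in tumor-bearing replicates 1 to 3 and 2 counts in each of the other 4 libraries. Its counts overlapped between the groups. The CPM did not, at 5.62 to 13.7 with a tumor and 16.1 to 19.5 without, and among genes with 10 to 30 counts 6.61% did not overlap in either direction. No 2 libraries differed by more than 1 count, and with no filter the log2 fold change was -0.67 (SE 0.87; adjusted p = 0.793, edgeR), with -0.41 without tumor-bearing replicate 3 and -1.01 in 31-week mice alone. Fosl1, which encodes Fra-1, had 0 counts in all 7 libraries.

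Of the Jun family, whose proteins pair with Fos proteins or with each other, Jun itself (chromosome 4, 95049036 to 95052222) was counted in every library. It had 5, 2, 3 and 1 counts in tumor-bearing replicates 1 to 4 (68.6, 21.02, 16.9 and 6.82 CPM) and 8, 3 and 3 counts in tumor-free replicates 1 to 3 (77.8, 25.5 and 24.2 CPM). The highest library of each group was its replicate 1, and the groups overlapped. With no filter the log2 fold change was -0.86 (SE 0.70; adjusted p = 0.793, edgeR). Leaving out tumor-bearing replicate 1 gave -1.42 and leaving out replicate 3 gave -0.55; leaving out tumor-free replicate 1 gave -0.41 and leaving out replicate 2 gave -1.36. Junb, often an antagonist of Jun, had 1 count in tumor-bearing replicate 2 and 2 in tumor-free replicate 1. The last 500 bases of Junb overlap Prdx2 on the opposite strand, and those of Fosl1 overlap Ccdc85b; no source used here states whether strand was kept in counting, so the Junb value is uncertain. Jund, the Jun-family gene least bound to acute induction, had 5 counts in tumor-bearing replicate 2, 2 in tumor-free replicate 2 and 1 in tumor-free replicate 3. The remaining libraries had 0 for both genes.

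Atf3, a stress-induced factor that pairs with Jun, had 1 count in tumor-bearing replicate 3 and 1 in tumor-free replicate 1. Nr4a1, an orphan nuclear receptor that parathyroid hormone induces in osteoblasts, had 0 counts in every library. At these depths a level under 20.7 to 50.6 CPM could go undetected in a library, so a count of 0 does not show absence.

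Of the 5 genes with 10 or more counts in total, Fos varied most between libraries relative to counting noise, followed by Jun; the measure was not taken for genes with fewer counts. The measure was the chi-square of the 7 counts against the library totals, divided by its degrees of freedom, which is about 1 for counting noise alone. It was 9.51 for Fos, above 89.7% of the 1528 genes with 50 to 150 counts in total, whose median was 1.62. Egr1, in the same range of counts, had 1.53, above 47.0% of them. Among the 2240 genes with 10 to 30 counts (median 1.25), Jun had 2.48, above 82.2% of them, Fosl2 0.79 and Fosb 0.21. Tumor-free replicate 3 alone held 40 of the 105 counts of Fos. The measure takes in any difference between the groups, and Fos was known to be lower with a tumor when it was listed.

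**Figure D3:**
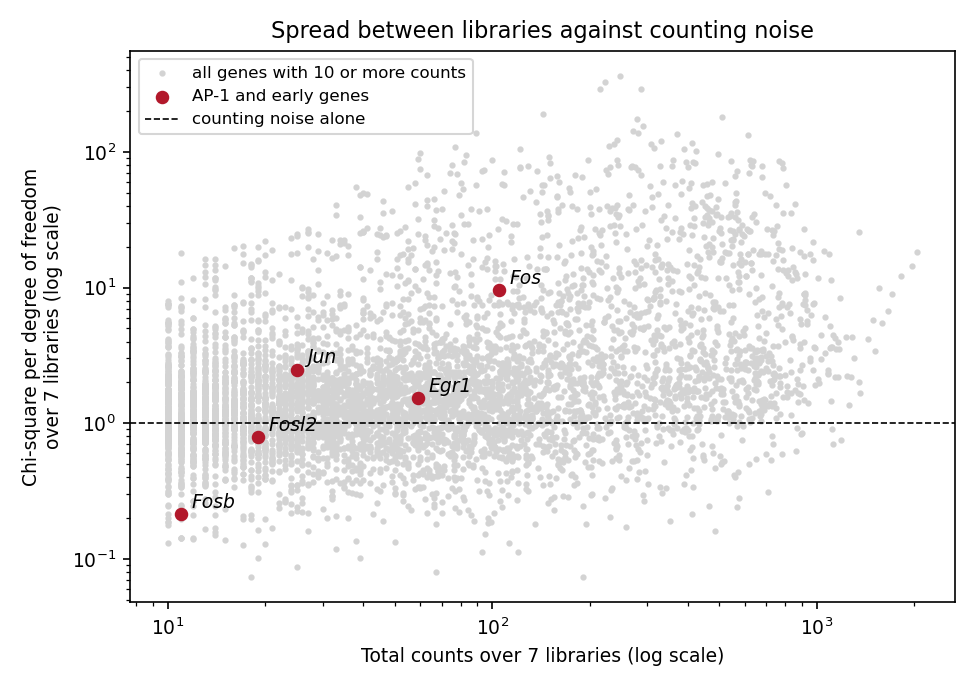
Chi-square per degree of freedom of the counts over 7 libraries (vertical, log scale) against total counts (horizontal, log scale), for genes with 10 or more counts in total (grey) and the 5 of the listed genes among them (red). The dashed line at 1 marks counting noise, with Fos at 9.51, Jun at 2.48, Egr1 at 1.53, Fosl2 at 0.79 and Fosb at 0.21.

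Digestion is known to raise early transcripts together, so the next question was whether they were high in the same libraries. Correlations were taken on log2(CPM + 10) over the 7 libraries, with two-sided exact permutation tests over all pairings. Among the 4 genes with a count in every library, 1 of 6 pairs had a Pearson r above 0, and r lay between -0.51 and 0.46 (lowest exact permutation p = 0.241, adjusted p = 0.585). The pair above 0 was Fosb and Jun (r = 0.46, exact permutation p = 0.293; Spearman rho = 0.79, exact permutation p = 0.0480, adjusted p = 0.264). Its r was 0.085 without tumor-bearing replicate 3 and tumor-free replicate 1, the libraries farthest from the median of Fosb. With Fos added, 3 of 10 pairs were above 0 and none passed (lowest adjusted p = 0.748, exact permutation).

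Fos and Egr1, the pair with most counts, had r = 0.34 (exact permutation p = 0.489, adjusted p = 0.816) and rho = 0 (exact permutation p = 1). Without tumor-bearing replicate 1 and tumor-free replicate 3, the libraries farthest from the median of Fos, r was -0.61. Tumor-bearing replicate 1 was lowest for both genes, whereas tumor-free replicate 3 was highest for Fos and the second lowest for Egr1. After subtraction of the group means r was 0.44. Fos and Jun had r = -0.44 (exact permutation p = 0.354, adjusted p = 0.748) and, after subtraction of the group means, -0.87: tumor-bearing replicate 1, with the highest Jun of its group, had no Fos. For Fos and Jun rho was 0.14, and r was 0.28 without tumor-bearing replicate 1 and tumor-free replicate 3, so the sign turned. With counts this low, weak correlations cannot be read either way, and with 5 libraries at 31 weeks and 2 at 23 weeks no correlation was taken within an age.

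The summed CPM of other early genes did not rank the libraries as the sum of these 10 genes did. Summed over the 10 genes, tumor-bearing replicates 1 to 4 had 137, 294, 230.3 and 218 CPM and tumor-free replicates 1 to 3 had 359.9, 263 and 427 CPM. The groups overlapped, with means of 220.0 ± 64.5 (SD, n = 4) and 350.1 ± 82.4 CPM (SD, n = 3). The 51 other early genes found of 53 listed summed to 1975, 1324, 2652 and 1753 CPM in the tumor-bearing and 2267, 3761 and 1426 CPM in the tumor-free libraries. Tumor-free replicate 3 was thus first of 7 in the 10 genes and the sixth in the other early genes, and tumor-free replicate 2 was first in the latter. Fos alone gave 322 of the 427 CPM in tumor-free replicate 3. In tumor-free replicate 2, Sik1 gave 1333 and Maff 1282 of the 3761 CPM of the other early genes. The ranks of these sums thus rest largely on few genes. The 21 genes listed for the response to heat and unfolded protein summed highest in tumor-free replicate 1 (2753 CPM) and lay between 1287 and 1698 CPM elsewhere. The heat shock factor gene Hsf2 alone held 1722 CPM of that highest sum. Of the 3 heat shock genes tested, Hsf2 and Hsp90ab1 (486 CPM) were highest in that library. Hsp90aa1 was highest in tumor-free replicate 3 (209.5 CPM), the library highest for Fos.

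**Figure D4:**
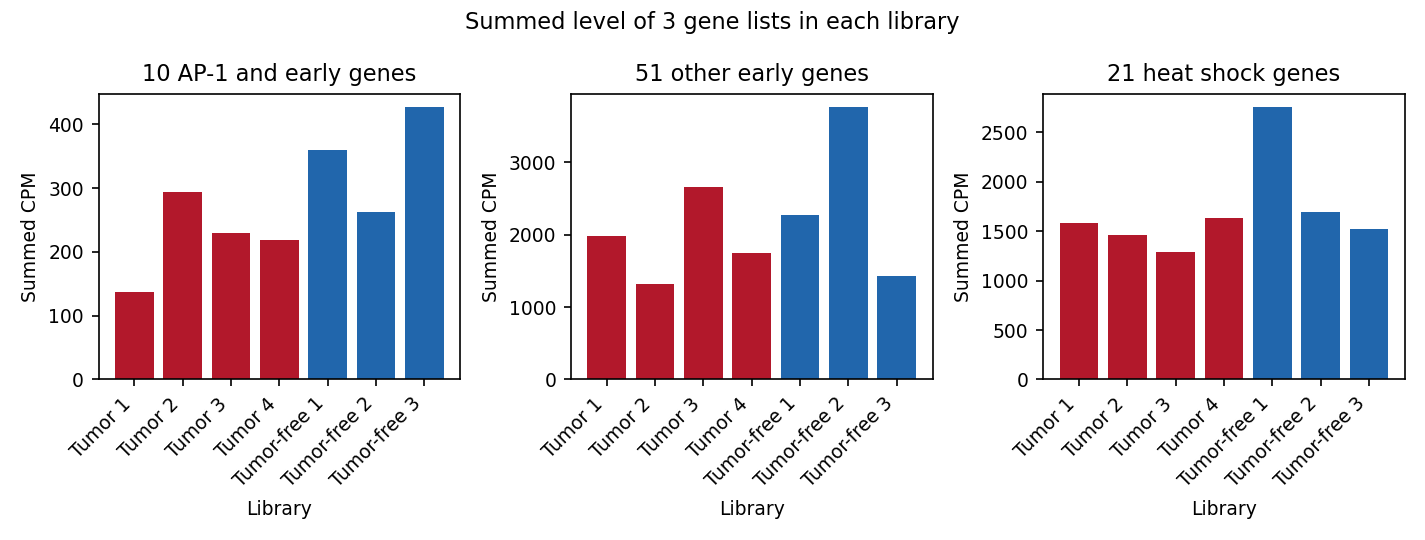
Summed CPM per library (bars from 0; red, tumor-bearing; blue, tumor-free) of the 10 AP-1 and early genes, of 51 other early genes and of 21 heat shock genes. A different library is highest in each panel: tumor-free replicate 3 at 427 CPM, replicate 2 at 3761 CPM and replicate 1 at 2753 CPM.

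The 4 most counted of the other early genes had more counts than Fos. Sik1, a salt-inducible kinase, had 32 to 157 counts per library, Maff, a small Maf protein, 12 to 151, and the antiproliferative genes Btg1 and Btg2 17 to 48 and 8 to 82. Sik1 had 453, 336, 769.7 and 368 CPM in tumor-bearing replicates 1 to 4 and 875, 1333 and 395 CPM in tumor-free replicates 1 to 3. Its log2 fold change was -0.79 (SE 0.35), that of Maff -0.28 (SE 0.73), that of Btg1 -0.20 (SE 0.32) and that of Btg2 0.16 (SE 0.49), each with an adjusted p of 0.990 (edgeR). Maff had 686, 126, 511 and 443 CPM against 253, 1282 and 193 CPM. For each of these 4 genes, the library highest for Fos, tumor-free replicate 3, was the lowest of its group. Btg1 had 145 CPM there, and Btg2 had 185 CPM beside 195 CPM in tumor-free replicate 2.

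Fos and Egr1 were each set against these 4 genes and the 3 heat shock genes tested, and pairs were also taken within the 4 and within the 3, 23 in all. No pair passed. With other early genes, Fos and Egr1 had r between -0.49 and 0.55 over 8 pairs (lowest adjusted p = 0.748, exact permutation), and with heat shock genes r between -0.017 and 0.66 over 6 pairs (lowest adjusted p = 0.491, exact permutation). The highest of these 14 was between Fos and Hsp90aa1 (r = 0.66, exact permutation p = 0.0853; rho = 0.57, exact permutation p = 0.200), and it was -0.11 without tumor-bearing replicate 1 and tumor-free replicate 3. Over 7 libraries the r of Fos with Sik1, Maff, Btg1 and Btg2 was 0.22, -0.26, -0.11 and 0.51. After subtraction of the group means it was -0.17, -0.36, -0.25 and 0.58. Without the same 2 libraries it was 0.93, 0.88, 0.93 and 0.26 over 5. Those 2 libraries were chosen by their Fos values, so the r over 5 libraries carries no test and shows no joint variation. Sik1 and Btg1 had the highest r of the 23 pairs, 0.86 (exact permutation p = 0.00734, adjusted p = 0.169; rho = 0.86). Of the 6 pairs among the 4 other early genes, 5 were above 0, Maff and Btg1 at 0.82 (exact permutation p = 0.0244, adjusted p = 0.190) and Sik1 and Maff at 0.63 among them.

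Of the 2488 other named genes tested, those most like Fos over the 7 libraries were Atp7a, a copper transporter (r = 0.98), Phex, a peptidase gene of osteoblasts and osteocytes whose loss causes hypophosphataemic rickets (r = 0.96), Agap1, Ap1s3 and B3galt6 (r = 0.93 each). They were picked as the highest of many and carry no test; 16 genes had r over 0.9 and 11 under -0.9. Phex had 5, 14, 27 and 22 counts in tumor-bearing replicates 1 to 4 and 17, 20 and 22 in tumor-free replicates 1 to 3. In CPM it was 68.6, 147, 152 and 150.1 against 165, 169.8 and 177, in the same order of libraries as Fos. Without tumor-bearing replicate 1 and tumor-free replicate 3 the r of Phex was 0.87, that of B3galt6 0.88, that of Atp7a 0.71, that of Ap1s3 0.45 and that of Agap1 0.12.

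Genes that work with AP-1 were described from lists of partners, upstream factors and targets, and none of their members passed the test. Of 29 other bZIP genes (the family that shares the leucine zipper), 7 were tested, 6 above 0 and 1 below, with a median log2 fold change of 0.24 beside 0.038 over all genes tested. Of all 2495 genes tested, 1351 were above 0 and 1144 below. Bach2, a repressor that pairs with small Maf proteins, had 164.6 to 371 CPM with and 127 to 136 CPM without a tumor, with no overlap (log2 fold change 1.01, SE 0.38; adjusted p = 0.990, edgeR), where 3.53% of genes tested did not overlap. Nrl, a factor of rod photoreceptors, had 28 to 134 counts (0.87, SE 0.66), Maf 32 to 74 (0.18, SE 0.27) and Atf2, a partner of Jun, 9 to 25 (0.24, SE 0.32). Of the kinases and factors upstream, 6 of 35 were tested (median 0.096). Map3k1, which activates the kinase of Jun, had 36 to 252 counts (-0.23, SE 0.49), and Elk1, a cofactor at the SRE, 18 to 44 (0.21, SE 0.28). Mrtfb, another such cofactor, had 19 to 219 counts (0.25, SE 1.04), and Crtc3, a coactivator at the CRE, 24 to 40 (0.14, SE 0.27). Of 26 AP-1 targets 7 were tested (median 0.024). Il11, an AP-1-dependent cytokine of bone, had 76 to 158 counts (-0.01, SE 0.22), Plau, which encodes urokinase, 42 to 161 (0.28, SE 0.48), and Mmp14, a membrane matrix metalloproteinase, 32 to 62 (0.03, SE 0.26). Col1a1, the main bone collagen, which is also an osteoblast marker, had 23 to 96 (-1.06, SE 0.52). The collagenase Mmp13, a classical target of Fos and Jun, was among those with too few counts to test.

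Of the 51 other early genes 5 were tested, 4 below 0 and 1 above (median -0.20), and 12 had 0 counts in all libraries. The 3 heat shock genes tested were all below 0 (median -0.59). Of all 2495 genes tested, 1144 were below 0 and 1351 above, with a median of 0.038. Lists with so few genes tested carry no result on direction. Hsf2, a heat shock factor, had 70 to 177 counts and -0.43 (SE 0.27), Hsp90ab1 13 to 50 and -0.79 (SE 0.44), and Hsp90aa1 5 to 26 and -0.59 (SE 0.43), with an adjusted p of 0.990 each (edgeR).

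The transcripts of the 10 genes were also described by 2 sequence features that the choice did not use. None of the 10 held a 25-base stretch shared by the transcripts of at least 50 genes, which 45.2% of genes tested and 14.4% of all genes with a transcript held. An internal A-rich window (11 A in 12 bases), to which an oligo-dT primer can anneal, was found in Egr1 and Jund, 1 each, so in 20.0% of the 10, beside 18.2% of all genes with a transcript and 40.2% of genes tested. Of the genes set beside them, Hsf2 held 66 shared stretches, Nrl 56, Bach2 58, Mrtfb 87, Il11 82, Mmp14 25, Crtc3 19, Elk1 17 and Atf2 5, while Sik1, Maff, Btg1 and Btg2 held none. Whether shared stretches added to the counts of these 9 genes was not tested.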

How the data were processed

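Trizol RNA became 3′ digital expression libraries by a custom CEL-Seq method with unique molecular identifiers, per the labels' protocols. Per the submitters' processing notes, TopHat2 2.0.10, SAMtools and mm10 were used. No source used here names the counting program, the strand setting or the use made of the identifiers. For each mouse the authors deposited raw counts by Entrez gene ID. A further allele that all mice carried is not reported here. A RefSeq table (GRCm38.p6) named 23666 of 23725 IDs.

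Genes were filtered with filterByExpr (minimum count 10, minimum total 15), which left 2495, scaled by TMM (factors 0.945 to 1.05) and tested with edgeR 4.0.16 (glmQLFit, robust, and glmQLFTest; age as a factor) in R 4.3.3. CPM used total counts times TMM factors. The procedure was run on simulated counts with planted differences. Its rate of recovery is not reported here, so the smallest difference it could call is left unstated. Intervals are exact Poisson intervals and cover counting error only. Correlations used a pseudocount of 10 CPM.

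The members and lists were chosen with earlier results of these data known. Named genes were the 10 members, up to 4 most counted genes tested in each list and the 5 genes most like Fos; Calcr, Mmp13 and other marker or target genes were named after their values were seen. Pairs with Fos, pairs with other early and heat shock genes, and fits of low genes with no filter were added after seeing the data. Transcript features were read from GENCODE vM21, with the longest transcript taken per symbol, leaving out the last 100 bases for A-rich windows. Alternatives tried were DESeq2 1.42.0, a block on replicate number, the 31-week mice alone, a fit without age, RLE and upper-quartile scaling, total counts, no filter, a stricter filter (30 counts in 3 libraries), no robust estimation and each library left out. Each library is a separate mouse, and no pair of libraries agreed within counting noise (chi-square per degree of freedom 1.99 to 3.16).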

Additional observations from a re-analysis of the deposited data

Results flagged for a closer look

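In the 4 tumor-bearing libraries, 8 of 38 genes and sums examined had 1 library far from the other 3 by Dixon's criterion. Chance gives this for about 1 in 20 groups, a rate that does not apply to 6 of the 8: Junb, Jund and Atf3 meet the criterion by having counts in 1 of these 4 libraries, and Atp7a, Phex and Agap1 were picked for their likeness to Fos. In tumor-bearing replicate 1 the lowest values were 178 CPM of Atp7a (others 367.9 to 387.6), 68.6 CPM of Phex (others 147 to 152) and 302 CPM of Agap1 (others 348 to 357). Fos had 0 counts in that library. In tumor-bearing replicate 2 the highest values were 2302 CPM of Mrtfb, a cofactor of the serum response factor (others 261 to 368), 1692 CPM of Plau (others 421 to 634), 52.6 CPM of Jund (5 counts) and 10.5 CPM of Junb (1 count), with 0 in the others for both Jun genes. In tumor-bearing replicate 3 Atf3 had 5.62 CPM, a single count, against 0 in the others.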

How the results depend on the processing

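The number of genes called stayed at 0 under all 18 alternatives, DESeq2 included (13 higher and 36 lower unadjusted). The log2 fold change of Fos was below 0 and not past the threshold in 17 alternatives, from -1.87 without tumor-bearing replicate 3 to -0.93 without tumor-free replicate 3; the stricter filter removed it. With the replicate block it was -1.82, against -1.60 in the same 6 libraries unblocked. The block paired mice by number, although those of number 3 differed in age (31 and 23 weeks). Deviations of mice with equal numbers had r = -0.20, -0.12 and -0.14, within the -0.26 to 0.24 of the other pairs. Per the design text the groups were matched for age, sex and litter. The sample labels used here give no litter for each mouse, so the part of shared litters was not tested. The sign of Egr1, fitted with no filter, turned with 31-week mice only (-0.22), without tumor-bearing replicate 2 (-0.018) or 4 (-0.16) and without tumor-free replicate 2 (-0.12) or 3 (-0.16); with a library left out it lay between -0.16 and 0.54. Pairs above 0 were 1 of 6; there were 2 on linear CPM and 2 after subtraction of group means, 3 of 10 with Fos added, and 1 to 3 with a library left out. The log2 ratio of the summed level was -0.67, and -0.84 to -0.50 in its alternatives. With a library left out, the unfiltered log2 fold change of Jun lay between -1.42 and -0.41 and that of Fosb between -0.95 and -0.41.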
